A study of Mus musculus with 12 samples.

Results

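Agrp, Npy, Otp, Calcr, Acvr1c and Corin, 6 genes that mark AGRP/NPY neurons of the arcuate nucleus, were taken as a set by name. All 6 were found among the 19878 genes of the count table, and all 6 passed the filter on low counts in every comparison. Their levels were measured in Pomc-CreERT2; Rosa26-eGFPL10a mice of strain C57BL/6, in which tamoxifen lets the Cre made by Pomc-expressing cells switch on a ribosomal protein tagged with GFP. Mice of every group carried both alleles, and the study's description gives tamoxifen to mice of both ages. The days of treatment differed between the ages, so age and the time of tagging cannot be told apart in the pull-downs. Translating ribosome affinity purification (TRAP-seq) of the dissected arcuate tissue gave a pull-down, the RNA held on beads by antibody to GFP, and a supernatant, the RNA that the beads left behind. The 12 libraries form 4 groups with 3 replicates each: the 2 fractions were taken from pups of postnatal day 12 (P12) and from adults of postnatal day 60 (P60). The tag marks cells in which Cre was active at the time of tamoxifen, so it stands for Pomc expression at that time, and the supernatant holds untagged RNA of all cells of the tissue. In such bulk samples, fewer cells of a type and less RNA per cell cannot be told apart. The study describes 3 independent experiments. Whether mice were pooled is not given in the sources used here, so the p-values measure the spread between these libraries.

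AGRP/NPY neurons lie beside POMC neurons and drive feeding. They release agouti-related peptide (AGRP), which blocks the melanocortin receptors that POMC peptides activate, together with neuropeptide Y (NPY) and the inhibitory transmitter GABA. Both kinds of neuron belong to 1 developmental family, since some progenitors that express Pomc in the embryo later become AGRP/NPY neurons. The other genes of the set act at different points. Otp is a homeodomain transcription factor needed for the development of several hypothalamic neuroendocrine cells. Calcr is the calcitonin receptor, which together with partner proteins also binds amylin. Acvr1c, also called ALK7, is a receptor kinase for activin B, nodal and related ligands. Corin is a membrane protease best known for cutting the precursor of atrial natriuretic peptide in the heart.

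Total counts ran from 6305778 in P12 pull-down 1 to 35249290 in P12 supernatant 3. Pomc, the gene that drives the Cre, was higher in the pull-down by 6.96 ± 0.19 on the log2 scale at P60 (SE; adjusted p = 9.42e-27) and by 2.01 ± 0.53 at P12 (adjusted p = 0.0248). The P12 call of Pomc was lost without replicate 3 (1.26, adjusted p = 0.606), without the replicate block (2.56, adjusted p = 0.0702) and with scaling by library size alone (1.66, adjusted p = 0.0577). The summed level of the POMC neuron markers Pomc, Cartpt, Prdm12 and Tbx3 ran from 34.7 to 111 CPM in the P12 pull-downs and from 51.4 to 58.6 CPM in the P12 supernatants, so the groups overlapped at P12. In the P60 pull-downs it ran from 3614 to 5707 CPM, against 78.9 to 145.8 CPM in the P60 supernatants. CPM is a gene's read count scaled by the total of its library, so that all libraries share 1 total. Adjusted p-values are from edgeR's quasi-likelihood test with Benjamini-Hochberg adjustment over all genes tested, and a gene is called at an adjusted p under 0.05.

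Npy, on chromosome 6 from 49822710 to 49829507 on the plus strand (mm10, whole gene, as all positions here), makes the peptide that AGRP neurons release to raise food intake. Its level was 9.83, 8.66 and 18.3 CPM in the P12 pull-downs of replicates 1, 2 and 3, and 20.7, 21.6 and 23.9 CPM in the P12 supernatants. At P60 it was 12.8, 8.15 and 12.1 CPM in the pull-downs and 21.5, 17.04 and 17.8 CPM in the supernatants. Every pull-down lay below every supernatant of its age, with no overlap. The fitted differences were nevertheless within their error, at -0.58 ± 0.52 at P12 (log2, SE; adjusted p = 0.621) and -0.57 ± 0.34 at P60 (adjusted p = 0.331), and Npy was not called at either age. With a length offset and the replicate block the fitted P12 difference of Npy turned to 0.65 (adjusted p = 0.625). Of all genes tested, 37.7% at P12 and 29.2% at P60 had every pull-down below every supernatant on the CPM scale, so the lack of overlap does not set Npy apart. The difference between the ages in this ratio was -0.03 ± 0.63 (adjusted p = 0.998).

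Agrp, on chromosome 8 from 105566695 to 105579845 on the minus strand, makes the melanocortin receptor blocker that names these neurons. The P12 pull-downs held 16.2, 9.16 and 0.0505 CPM, and the P12 supernatants 7.02, 8.05 and 3.66 CPM. The P60 pull-downs held 1.09, 13.2 and 0.834 CPM, and the P60 supernatants 6.45, 3.70 and 5.45 CPM. The pull-downs thus fell on both sides of the supernatants at both ages, with P12 pull-downs 1 and 2 and P60 pull-down 2 above all supernatants of their age and the other 3 below them. In reads, the P12 pull-downs held 102, 165 and 1 and the P60 pull-downs 15, 248 and 9. The P60 pull-downs differed from each other by up to 15.8-fold in CPM, whereas the supernatants differed by up to 2.2-fold at P12 and 1.74-fold at P60. Wide spread in the pull-downs was not particular to Agrp. Pcsk6 ran from 0.0505 to 23.6 CPM in the P12 pull-downs and from 5.11 to 6.78 CPM in the P12 supernatants. Bsx ran from 0.373 to 7.14 CPM in the P60 pull-downs and from 6.69 to 8.80 CPM in the P60 supernatants. Npy differed by up to 2.11-fold in the P12 pull-downs and 1.57-fold in the P60 pull-downs. The fitted differences of Agrp were -0.37 ± 1.35 at P12 (adjusted p = 0.913) and -1.05 ± 0.93 at P60 (adjusted p = 0.555), and neither was called. The sign at P12 turned without replicate 3 (1.04, adjusted p = 0.75), without the replicate block (0.755) and with a length offset (0.609), and that at P60 without the block (0.274). A long non-coding RNA gene, Gm38250, lies over Agrp on the other strand. It has no row in the count table, and the strand setting of the counting is not given in the sources used here, so its reads and those of Agrp cannot be told apart.

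**Figure D1:**
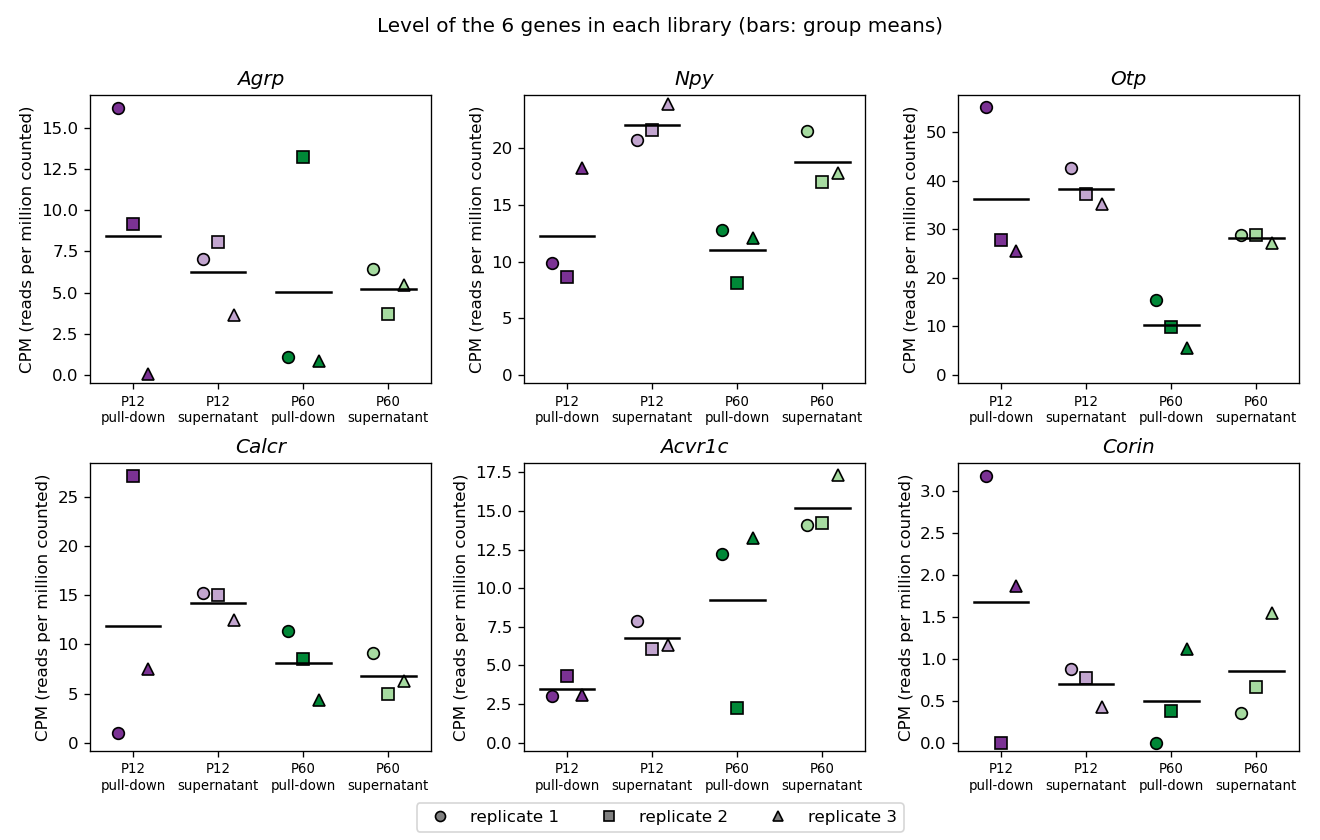
Level of each gene (y axis, CPM, linear from 0) in each library (points, shaped by replicate) of the 4 groups (x axis), with the group mean as a bar. Pull-downs of Agrp spread from 0.0505 to 16.2 CPM at P12 while the supernatants stayed between 3.66 and 8.05 CPM, and Otp in the P60 pull-downs (5.47 to 15.5 CPM) lay below every other group.

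The peptide pair can also be compared within a library, where scaling plays no part. Agrp reads made up 25.3%, 27.1% and 13.3% of the Agrp and Npy reads in the P12 supernatants and 23.1%, 17.9% and 23.5% in the P60 supernatants. In the P12 pull-downs the share was 62.2% (exact Clopper-Pearson 95% interval 54.3% to 69.6%, 164 reads), 51.4% (45.8% to 57.0%, 321 reads) and 0.276% (0.00697% to 1.52%, 363 reads). In the P60 pull-downs it was 7.85% (4.46% to 12.6%, 191 reads), 61.9% (56.9% to 66.6%, 401 reads) and 6.47% (3.0% to 11.9%, 139 reads). The intervals cover counting error only. No pull-down interval reached into the range of the supernatant shares of its age, and the pull-downs lay on both sides of that range. Npy stayed between 8.15 and 18.3 CPM in those 6 pull-downs, so the spread of the share was mostly that of Agrp. The mean share was 38.0% ± 33.1 in the P12 pull-downs against 21.9% ± 7.53 in the supernatants (SD, n = 3 each; two-sided exact permutation p = 0.5). At P60 the means were 25.4% ± 31.6 and 21.5% ± 3.13 (SD, n = 3 each; exact permutation p = 1.0). The pull-downs of the ages differed by -12.6 percentage points, P60 less P12 (exact permutation p = 0.9), and the supernatants by -0.45 points (exact permutation p = 1.0). These permutation tests did not use the pairing by replicate number. All 4 p-values adjusted to 1.0, and 3 unpaired libraries against 3 cannot give a p below 0.10.

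**Figure D2:**
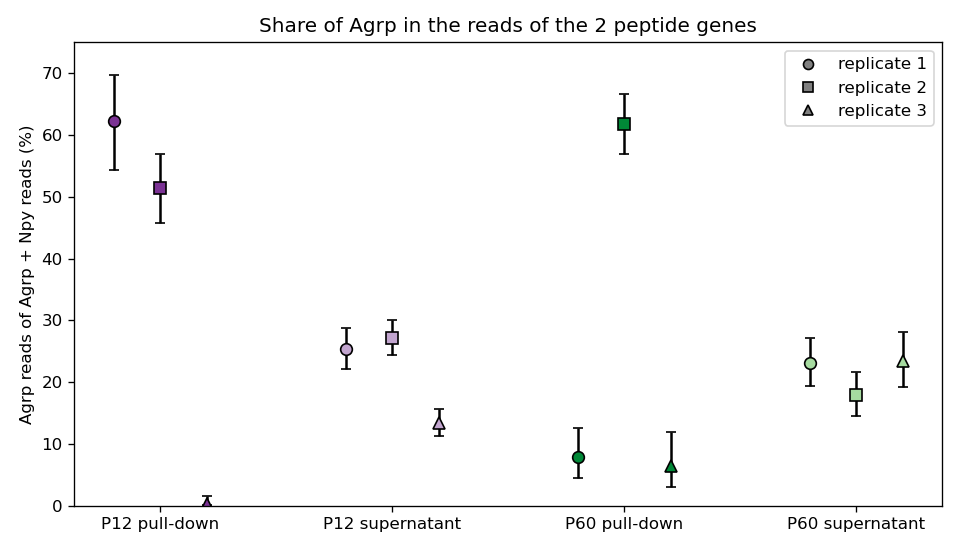
Agrp reads as a percentage of Agrp and Npy reads (y axis) in each library (points, shaped by replicate) of the 4 groups (x axis), with exact 95% intervals for counting error. The 6 supernatants sit between 13.3% and 27.1%, and the 6 pull-downs sit either at 51.4% and above or at 7.85% and below.

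Otp was the only one of the 6 genes called between pull-down and supernatant. It lies on chromosome 13 from 94875636 to 94885125 on the plus strand. At P60 its level was 15.5, 9.96 and 5.47 CPM in the pull-downs and 28.9, 28.8 and 27.2 CPM in the supernatants, with no overlap, and it was lower in the pull-down in 3 of 3 pairs. The fitted difference was -1.33 ± 0.32 (log2, SE; adjusted p = 0.00343). Otp was thus 1 of 6 genes called lower at P60, where 4.53% of the 14444 genes tested were called lower and 7.11% higher, and the median log2 fold change was -0.10. Without replicate 3 it was not called (-0.995, adjusted p = 0.109). At P12 the pull-downs held 55.2, 27.9 and 25.6 CPM and the supernatants 42.8, 37.2 and 35.2 CPM. The groups overlapped, with pull-down 1 above all supernatants and the other pull-downs below them, and the difference was 0.18 ± 0.33 (adjusted p = 0.817). The change of this ratio between the ages was -1.55 ± 0.49 and was not called (adjusted p = 0.152 in edgeR and 0.0505 in DESeq2).

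Between ages, Otp fell in both fractions. In the pull-downs it fell by 1.99 ± 0.49 on the log2 scale (adjusted p = 0.0277). Its mean level there was 36.2 ± 16.5 CPM at P12 and 10.3 ± 5.04 CPM at P60 (SD, n = 3 each). All P60 pull-downs lay below all P12 pull-downs, which was so for 8.08% of the genes tested. In that comparison 3.11% of 13570 genes were called lower and 1.89% higher, and Otp was the 1 of the 6 genes called. The call was lost without P12 replicate 1 (-1.59, adjusted p = 0.0699), P12 replicate 2 (-2.12, adjusted p = 0.0571), P60 replicate 1 (-2.30, adjusted p = 0.0593), P60 replicate 2 (-1.99, adjusted p = 0.115) and P60 replicate 3 (-1.70, adjusted p = 0.155). The pull-downs of the ages also differed in the summed POMC neuron markers, at 34.7 to 111 CPM at P12 and 3614 to 5707 CPM at P60. The part of this in the fall of Otp, or in other differences between the pull-downs of the ages, was not tested. In the supernatants Otp fell by 0.48 ± 0.10 (adjusted p = 0.000144). The means were 38.4 ± 3.9 CPM at P12 and 28.3 ± 0.934 CPM at P60 (SD, n = 3 each).

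Otp is also made by neurons outside the arcuate nucleus, among them those of the paraventricular nucleus, whose markers Sim1, Avp, Oxt, Crh and Trh were summed for comparison. At P12 their sum spanned 83.1 to 133.4 CPM in pull-downs and 115.0 to 149.4 CPM in supernatants. At P60 it spanned 46.0 to 68.0 CPM in pull-downs and 76.4 to 79.0 CPM in supernatants, so it was lower at P60 in both fractions. With age, edgeR called 1 of the 5 lower in the pull-downs and 3 lower in the supernatants, and 0 higher. The mean of Oxt instead rose in the pull-downs, from 7.109 CPM at P12 to 8.258 CPM at P60, with overlap. Between fractions, edgeR called 0 of these 5 markers at either age (1 had an unadjusted p under 0.05 at P12 and 0 at P60, and DESeq2 called 1 and 0). Sim1, a factor that acts in the same paraventricular neurons as Otp, fell with age in the pull-downs by 1.44 ± 0.38 (adjusted p = 0.0404) and in the supernatants by 0.76 ± 0.10 (adjusted p = 4.13e-07). The pull-down call of Sim1 was lost without P12 replicate 2 (adjusted p = 0.118), P12 replicate 3 (0.0759), P60 replicate 2 (0.131) and P60 replicate 3 (0.182), with scaling by library size alone (0.0804) and with a length offset (0.0794). Sst, the peptide gene of somatostatin neurons, was lower in the P60 pull-down by 0.62 ± 0.18 on the log2 scale (adjusted p = 0.0139), a call that was lost without replicate 3 (adjusted p = 0.182) and in the fit over all 12 libraries (0.107). The ventromedial markers Nr5a1 and Fezf1 had a median log2 fold change with age of -1.0 in the pull-downs and -0.56 in the supernatants. Of these 2 markers, edgeR called 0 lower in the pull-downs and 2 in the supernatants. The part of the paraventricular, somatostatin and ventromedial cells in the Otp differences was not tested.

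The bases before the Otp start site are shown because Otp carried the calls in the pull-downs, and the capitals mark its matches to TAAT, the core that homeodomain proteins such as Otp bind. RefSeq gives them as chr13:94875386-94875635 (GRCm38.p6, plus strand), the 250 bases up to the start of the gene.
Otp: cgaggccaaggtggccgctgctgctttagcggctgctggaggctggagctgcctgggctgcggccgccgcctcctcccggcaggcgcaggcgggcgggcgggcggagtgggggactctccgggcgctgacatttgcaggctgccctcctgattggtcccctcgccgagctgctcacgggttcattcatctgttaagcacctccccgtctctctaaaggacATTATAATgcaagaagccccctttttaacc
The TAAT core matched on each strand, with the 2 matches side by side. Over both strands, 54.9% of 32851 RefSeq promoter windows of this length held TAAT, 3.2% held a FOXO motif (GTAAACA), 17.8% the core of the cyclic AMP response element (TGACG) and 12.4% a TATA box (TATAAA). The Otp window held none of the other 3, and those of Npy and Acvr1c held none of the 4. Windows were found for 5 of the 6 genes, and of the others the Corin window held TAAT, both Calcr windows held TGACG and 1 of the 2 Calcr windows held TAAT. These matches are letters in a window and not measured binding.

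Calcr, on chromosome 6 from 3685678 to 3764713 on the minus strand, encodes a receptor through which amylin and calcitonin can reduce feeding. The P12 pull-downs held 0.952, 27.1 and 7.47 CPM and the P12 supernatants 15.2, 15.04 and 12.5 CPM. At P60 the pull-downs held 11.4, 8.52 and 4.36 CPM and the supernatants 9.09, 4.95 and 6.32 CPM. Pull-downs and supernatants overlapped at both ages, and P12 pull-downs 1 and 2 were the lowest and the highest of all 12 libraries. The differences were -0.72 ± 0.87 at P12 (log2, SE; adjusted p = 0.717) and 0.42 ± 0.53 at P60 (adjusted p = 0.699), and without the replicate block the P12 value turned to 0.116. The tissue itself showed an age difference. In the supernatants Calcr fell by 1.13 ± 0.17 (adjusted p = 3.56e-06). The means were 14.2 ± 1.5 CPM at P12 and 6.79 ± 2.11 CPM at P60 (SD, n = 3 each), and the ages did not overlap. In the pull-downs the age difference was -0.77 ± 0.92 (adjusted p = 0.743).

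Acvr1c went the other way with age in the supernatants. It lies on chromosome 2 from 58267453 to 58357896 on the minus strand. Its level was 7.86, 6.06 and 6.33 CPM in the P12 supernatants and 14.1, 14.2 and 17.3 CPM in the P60 supernatants, with no overlap, and it rose by 1.14 ± 0.16 (log2, SE; adjusted p = 5.86e-07). The pull-downs held 3.01, 4.33 and 3.08 CPM at P12 and 12.2, 2.24 and 13.3 CPM at P60. At P60 2 pull-downs were above and 1 was below every P12 pull-down, and the age difference was 1.20 ± 0.99 (adjusted p = 0.603), about the size of that in the supernatants but with a larger error. Like Npy, Acvr1c was lower in the pull-down in 3 of 3 pairs at each age without overlap and without a call, at -0.62 ± 1.09 at P12 (adjusted p = 0.807) and -0.81 ± 0.44 at P60 (adjusted p = 0.272). In all, 2 of the 6 genes at P12 and 3 of the 6 at P60 had every pull-down below every supernatant, beside 37.7% and 29.2% of all genes tested. The long non-coding RNA gene Gm13544 overlaps Acvr1c on the other strand. It was counted at 0.959 to 2.89 CPM in the P12 pull-downs, 0.841 to 2.07 CPM in P12 supernatants, 0.0927 to 0.58 CPM in P60 pull-downs and 1.58 to 2.68 CPM in P60 supernatants, and its part in the Acvr1c values was not tested.

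**Figure D3:**
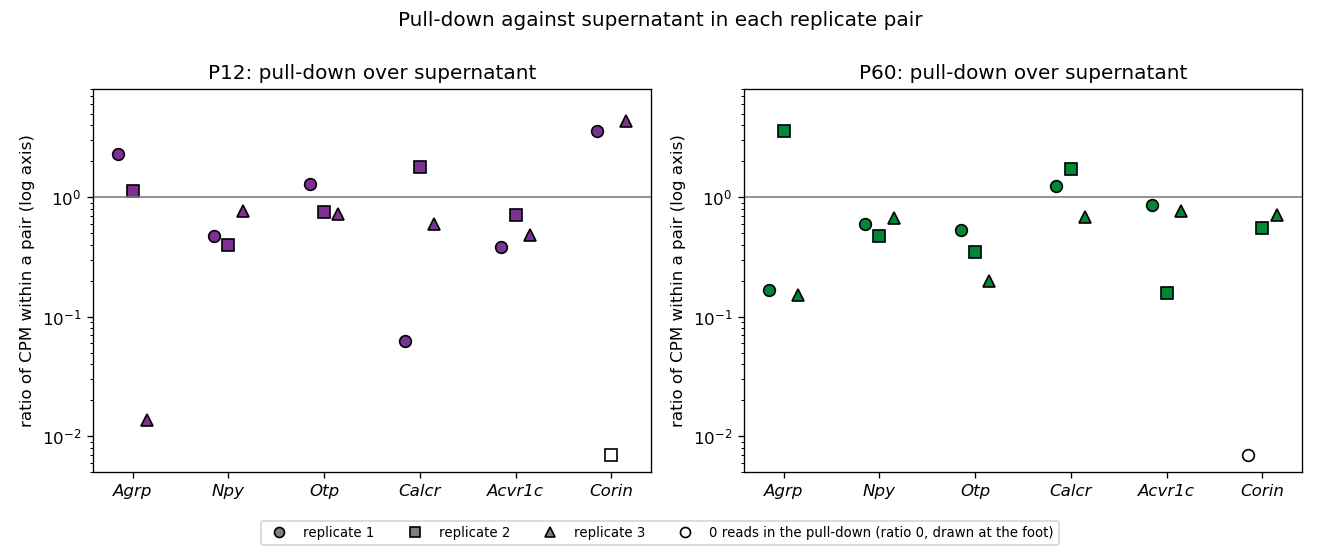
Pull-down CPM over supernatant CPM within each replicate pair (y axis, log scale; points shaped by replicate) for the 6 genes (x axis) at P12 and at P60, with a line at a ratio of 1. All ratios of Npy and Acvr1c lie below 1 at both ages, as do those of Otp at P60. Those of Agrp lie on both sides of 1, and its lowest point at P12 is a pull-down with 1 read. Open symbols at the foot are pull-downs with 0 reads of Corin.

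Corin had the lowest mean CPM of the 6 genes in each of the 4 groups, though not in every library. It lies on chromosome 5 from 72299948 to 72504540 on the minus strand. The P12 pull-downs held 3.17, 0 and 1.87 CPM and the supernatants 0.883, 0.777 and 0.425 CPM. The P60 pull-downs held 0, 0.373 and 1.11 CPM and the supernatants 0.352, 0.669 and 1.55 CPM. A count of 0 allows a level of up to 0.167 CPM in P12 pull-down 2 and 0.218 CPM in P60 pull-down 1 (3 reads in the library). Both fractions overlapped at both ages, with differences of 0.83 ± 2.88 at P12 (log2, SE; adjusted p = 0.909) and -1.18 ± 2.01 at P60 (adjusted p = 0.79). Between ages they were -1.84 ± 2.16 in the pull-downs (adjusted p = 0.74) and 0.27 ± 0.54 in the supernatants (adjusted p = 0.728). Corin was thus not called in any of these comparisons, and its reads ran from 0 to 37 a library.

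Across the 6 genes, 0 were called at P12, where edgeR called 6.28% of 14852 genes higher and 1.95% lower. There 0 of the 6 had an unadjusted p under 0.05, and DESeq2 also called 0 of them. The median log2 fold change of the 6 genes was -0.48 at P12 and -0.93 at P60, beside medians of -0.27 and -0.10 over all genes tested. With scaling by library size alone the medians over all genes were -0.61 and -0.32, and 534 genes were called higher and 1390 lower at P12 (933 and 289 with TMM) and 614 and 1790 at P60 (1027 and 655 with TMM). Otp at P12 then stood at -0.17, so its sign there follows the scaling, while its P60 call was kept. The change of the pull-down to supernatant ratio between ages was called by edgeR for 0 of the 6 genes, with 0.438% of 15311 genes called higher and 0.686% lower. In that test 1 of the 6, Otp, had an unadjusted p under 0.05, and DESeq2 called 0. In the supernatants 20.9% of 15251 genes were called higher at P60 and 20.8% lower, and 1 of the 6 genes (Acvr1c) was called higher and 2 (Otp and Calcr) lower, so calls among the 6 were about as common as among all genes. Every P60 supernatant lay above every P12 supernatant for 27.4% of the genes tested and below for 21% of them. Npy (-0.28 ± 0.12, adjusted p = 0.0535) and Agrp (-0.31 ± 0.24, adjusted p = 0.323) did not pass the test there. When all 12 libraries shared 1 estimate of the spread, the supernatant age calls of Otp (-0.47, adjusted p = 0.765), Calcr (-1.11, adjusted p = 0.75) and Acvr1c (1.14, adjusted p = 0.457) were lost.

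**Figure D4:**
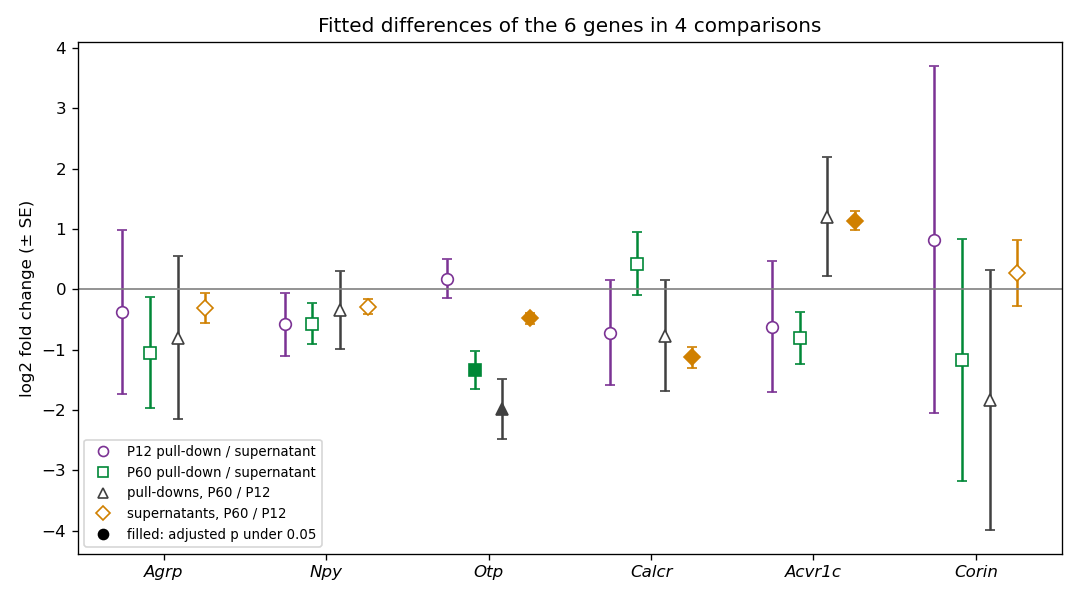
Log2 fold change with its SE (y axis) of the 6 genes (x axis) in 4 comparisons (symbols), filled where the adjusted p is under 0.05. Filled symbols are those of Otp at P60 (-1.33), Otp between the pull-downs (-1.99), and Otp (-0.48), Calcr (-1.13) and Acvr1c (1.14) between the supernatants.

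Levels of different genes are compared per kilobase of transcript (CPM per kb), using the longest GENCODE transcript of the gene that matches a RefSeq mRNA. In the P60 supernatants Npy stood at 33.2 ± 4.25 CPM per kb, Otp at 10.6 ± 0.352, Agrp at 7.87 ± 2.1, Calcr at 1.80 ± 0.56, Acvr1c at 1.66 ± 0.201 and Corin at 0.176 ± 0.128 (SD, n = 3 each). Of neighbours in this order, only Calcr and Acvr1c had libraries that overlapped. In the P12 supernatants the order was Npy (39.0 ± 2.88 CPM per kb), Otp (14.5 ± 1.47), Agrp (9.45 ± 3.47), Calcr (3.79 ± 0.399), Acvr1c (0.737 ± 0.106) and Corin (0.143 ± 0.0492), and no neighbours overlapped.

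The 6 genes did not vary alike over the libraries. Over the 12 libraries, Agrp and Npy had a Pearson correlation of -0.41 in log2 CPM, and Calcr and Corin one of -0.71, the largest in size among the 6 genes. Both values rest partly on few reads, with 0 to 37 a library for Corin and as few as 1, 9 and 15 in pull-downs for Agrp. These correlations and the next are descriptions, over libraries that differ in fraction, age and depth. Of 15310 genes, those most like Agrp were Gm9899 (0.94), 2310035C23Rik (0.94) and Cpne3 (0.93), and those most like Npy were Nyx (0.95), Gtpbp8 (0.94) and Chst7 (0.94). For Otp they were Atxn7l3 (0.97), Tox3 (0.96) and Clip3 (0.96), and for Calcr Mfhas1 (0.94), Neo1 (0.94) and Nid1 (0.94). Sfrp5 (0.95), 2900005J15Rik (0.94) and Gm5535 (0.94) came first for Acvr1c, and Dedd (0.93), Uggt2 (0.91) and Mtx3 (0.90) for Corin. Some of these genes had few reads. Group means ran from 0.0618 to 1.2 CPM for Nyx and from 0.0927 to 0.752 CPM for Chst7. They ran from 0 to 3.5 CPM for Sfrp5, to 1.67 CPM for 2900005J15Rik and to 2.6 CPM for Gm5535. Among the other genes named, the lowest group mean was 2.97 CPM, for Nid1. None of the 6 genes was among the 3 genes nearest to another.

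Genes around AGRP/NPY signalling were read from lists chosen for their role. Of 10 receptors by which AGRP neurons sense hormones and peptides, edgeR called 0 at P12 (1 at an unadjusted p under 0.05, 0 in DESeq2). The most abundant, the insulin receptor gene Insr, stood at -0.71 ± 0.32 there (adjusted p = 0.254). Beside 7.11% of all genes called higher at P60 and 4.53% lower, 3 of the 10 were called higher in the pull-down and 0 lower. These were the NPY receptors Npy1r (2.30 ± 0.27, adjusted p = 3.52e-08), Npy5r (3.13 ± 0.50, adjusted p = 1.41e-05) and Npy2r (2.01 ± 0.29, adjusted p = 3.08e-06). Npy1r stood at 49.9, 43.2 and 33.8 CPM in the P60 pull-downs against 9.01 to 10.8 CPM in the supernatants. The call of Npy5r was lost in the fit over all 12 libraries (3.12, adjusted p = 0.0846). So at P60 the receptors of NPY were higher in the pull-down, whereas Npy itself was below the supernatant in every pair without a call. Between the pull-downs of the ages the same 3 of 10 receptors rose, where 1.89% of all genes were called higher. Npy1r rose by 3.15 ± 0.48, Npy2r by 1.85 ± 0.51 and Npy5r by 7.49 ± 1.33, the last a fitted value over P12 pull-downs with 0, 3 and 0 reads. The call of Npy2r was lost without P12 replicate 2 (adjusted p = 0.0808) or 3 (0.0512), without P60 replicate 1 (0.102), 2 (0.208) or 3 (0.239) and with a length offset (0.073). In the supernatants 1 receptor, the serotonin receptor Htr1b, fell with age by 1.06 ± 0.17 (adjusted p = 9.6e-06), where 20.8% of all genes were called lower.

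The list of 9 AGRP and NPY targets and melanocortin genes shares those 3 NPY receptors, which were its only calls in the pull-downs. At P12 edgeR called 0 of its genes (0 at an unadjusted p under 0.05, 0 in DESeq2), and its gene with the highest level was Sdc3, a syndecan that helps AGRP act at its receptor, at 219 ± 35.1 CPM in the P12 pull-downs and 331.1 ± 21.8 CPM in the P12 supernatants (SD, n = 3 each). In the supernatants Sdc3 fell with age by 0.80 ± 0.08 (adjusted p = 1.03e-09), 1 of 9 genes called, where 20.8% of all genes were called lower. Of the 3 genes of GABA synthesis and packaging, 1 was called higher in the pull-down at P12 and 2 at P60, where 6.28% and 7.11% of all genes were. Gad1, which makes GABA, was higher in the pull-down by 0.86 ± 0.14 at P12 (adjusted p = 0.000499) and by 1.28 ± 0.15 at P60 (adjusted p = 2.69e-08). Gad2, the other synthesis enzyme, was higher at P60 by 0.51 ± 0.14 (adjusted p = 0.0105), a call lost without replicate 2 (adjusted p = 0.0774), without replicate 3 (0.16) and with scaling by library size alone (0.174). The packaging gene Slc32a1 held 45.2, 78.3 and 66.5 CPM in the P12 pull-downs and 91.2, 105.8 and 100.9 CPM in the P12 supernatants. At P60 it held 82.0, 60.2 and 59.9 CPM in the pull-downs and 95.9, 89.7 and 88.3 CPM in the supernatants. It was below its supernatant in 3 of 3 pairs at each age and was not called, at -0.33 ± 0.21 at P12 (adjusted p = 0.458) and -0.23 ± 0.17 at P60 (adjusted p = 0.463). Gad2 fell with age in the supernatants by 0.48 ± 0.07 (adjusted p = 8.71e-07), 1 of 3 genes called, where 20.8% of all genes were called lower.

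Of 11 transcription factors of AGRP neurons or of Otp-expressing hypothalamus, 10 were tested. At P12 edgeR called 0 of them (4 at an unadjusted p under 0.05, and DESeq2 called 2), and the most abundant, Arnt2, a partner of Sim1, stood at 0.40 ± 0.14 (adjusted p = 0.11). At P60 only Pou3f2, a factor of hypothalamic neuroendocrine cells, was called, with a level lower by 1.12 ± 0.20 on the log2 scale (adjusted p = 8.81e-05). Of all genes 4.53% were called lower there. The 10 factors had a median log2 fold change of -0.63 at P60. Sim1 was the only one called between the pull-downs of the ages, where 3.11% of all genes were called lower. In the supernatants 5 of the 10 fell and 1 rose with age, where 20.8% of all genes were called lower and 20.9% higher. Those of smallest p that fell were Dlx1, a homeodomain factor of GABA neurons (-1.23 ± 0.10, adjusted p = 7.53e-12), Sim1 (above) and the related factor Dlx2 (-0.62 ± 0.12, adjusted p = 0.000147). The factor that rose was Arnt2 (0.29 ± 0.07, adjusted p = 0.000932). The others that fell were Klf4 (-0.66 ± 0.24, adjusted p = 0.0286) and Nhlh2 (-0.30 ± 0.12, adjusted p = 0.035). Klf4 lost its call when P12 replicate 1 (adjusted p = 0.0582), 2 (0.0698) or 3 (0.0593) was left out, without P60 replicate 1 (0.0662) or 3 (0.218) and in DESeq2 (0.252). Nhlh2 lost its call when P12 replicate 2 (0.149) or 3 (0.0857) was left out, without P60 replicate 1 (0.118) or 2 (0.131) and with scaling by library size alone (0.0827).

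Around Calcr, 5 of 7 partners and ligands were tested, and edgeR called 0 between fractions at either age (1 at an unadjusted p under 0.05 at each age, and 1 in DESeq2 at P12). The most abundant, Ramp1, stood at -0.89 ± 0.93 at P12 (adjusted p = 0.672) and -1.17 ± 0.51 at P60 (adjusted p = 0.148). Between the supernatants 1 of the 5 was called higher at P60 and 1 lower, where 20.9% and 20.8% of all genes were. Ramp3, a membrane partner that turns the calcitonin receptor into an amylin receptor, rose there with age by 1.74 ± 0.22 (adjusted p = 1.15e-07), while Calcr fell. Ramp3 averaged 2.58 ± 0.345 CPM at P12 and 8.85 ± 1.47 CPM at P60 (SD, n = 3 each). Calcrl, the related receptor for calcitonin gene-related peptide, fell by 0.51 ± 0.20 (adjusted p = 0.0368). The call of Calcrl was lost without P12 replicate 1 (adjusted p = 0.0628), 2 (0.0871) or 3 (0.0688), without P60 replicate 1 (0.132) or 2 (0.16) and with scaling by library size alone (0.0557). Iapp, the amylin gene, had 0 reads in all 12 libraries, which allows up to 0.476 CPM in the shallowest. Of 15 activin and nodal genes around Acvr1c, 11 were tested in each comparison of fractions and edgeR called 0 (2 at an unadjusted p under 0.05 at each age, and 1 in DESeq2 at P12). The most abundant, Smad2, stood at 0.43 ± 0.20 at P12 (adjusted p = 0.255). With age in the supernatants, 2 rose and 2 fell, where 20.9% of all genes were called higher and 20.8% lower. Smad7, an inhibitor of the pathway, rose by 0.66 ± 0.09 (adjusted p = 1.06e-06) and the ligand-binding receptor Acvr2a fell by 0.36 ± 0.10 (adjusted p = 0.00321), while Smad2 (-0.22 ± 0.08, adjusted p = 0.0213) and Smad4 (0.20 ± 0.08, adjusted p = 0.0425), which carry the signal, were called by small margins. The call of Smad4 was lost without any 1 of the 6 libraries, and that of Smad2 without P12 replicate 2 (adjusted p = 0.119) and P60 replicates 1 (0.089) and 2 (0.0676). Acvr1b, the related receptor that other activins use, was not called in any comparison.

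Around Corin, 7 of 8 genes of the natriuretic peptide pathway were tested at P12 and 6 at P60, and edgeR called 0 between fractions (0 and 1 at an unadjusted p under 0.05, 0 in DESeq2). The most abundant, Furin, a convertase, stood at 0.18 ± 0.42 at P12 (adjusted p = 0.863). Between the supernatants 2 of the 7 genes tested were called higher at P60 and 1 lower, where 20.9% and 20.8% of all genes were. Pcsk6, the protease that activates the corin protein, rose there with age by 1.23 ± 0.16 (adjusted p = 1.97e-07) and Npr2, the receptor of C-type natriuretic peptide, by 0.88 ± 0.12 (adjusted p = 9.19e-07). Nppa, the precursor gene that corin cuts, fell by 1.43 ± 0.58 (adjusted p = 0.0474) from 13 to 43 reads a library at P12 to 6 to 8 at P60. The P12 supernatants were deeper. On the CPM scale Nppa ran from 0.404 to 1.81 at P12 and from 0.352 to 0.434 at P60, so the ages overlapped. The call of Nppa was lost in DESeq2 (adjusted p = 0.064), with the replicate block (0.0862), with no filter (0.0566) and without P60 replicate 1 (0.122), 2 (0.122) or 3 (0.0803). Of the supernatant age calls named here for list genes, those of Htr1b, Dlx2, Sim1, Arnt2, Klf4, Nhlh2, Ramp3, Calcrl, Acvr2a, Smad2, Smad4, Smad7, Nppa, Npr2 and Pcsk6 were also lost in the fit over all 12 libraries.

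**Figure D5:**
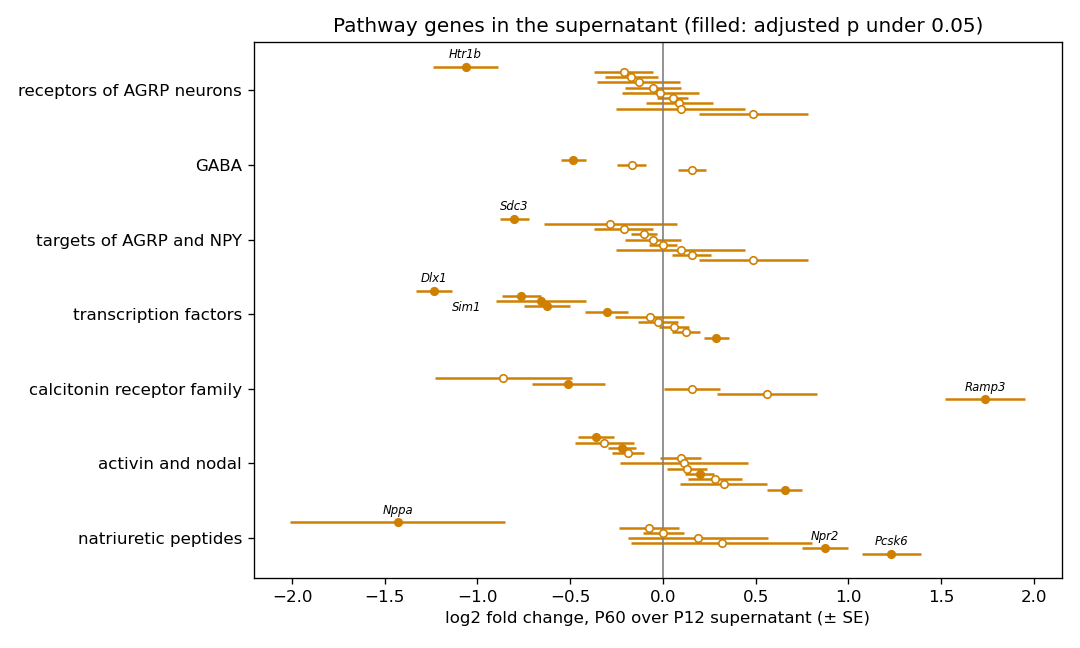
Log2 fold change with its SE (x axis, P60 over P12 supernatant) of each tested gene of the 7 lists (y axis), filled where the adjusted p is under 0.05. Ramp3 (1.74) and Pcsk6 (1.23) lie farthest right, Nppa (-1.43) and Dlx1 (-1.23) farthest left, and 5 of the 10 transcription factors are filled on the left side.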

How the data were processed

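Single-end libraries were made with the RiboGone depletion and the SMARTer stranded total RNA kits (1 label entry instead reads polyA RNA). The authors used TopHat2 2.0.13, Bowtie2 2.2.1, the mm10 genome and HTSeq to make the deposited read counts per gene, which are not normalized. All 12 files of single samples equalled their columns of the whole table. Sample labels gave each group and replicate number.

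The test was edgeR's quasi-likelihood F (version 4.0.16, R 4.3.3) on TMM-scaled counts of genes kept by filterByExpr, called at an adjusted p under 0.05. Pull-down and supernatant were compared within an age with the replicate number as a block, after the study's paired model, and ages without a block. The change between ages was the P60 contrast less the P12 contrast. Scripts were tested on simulated data. CPM is scaled by the library total alone. Alternatives included DESeq2 1.42.0, other scalings, no filter, a length offset and leaving out replicates.

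The members and lists were chosen with earlier results of these data known. One gene of a list is not reported here. List genes are named if called, up to 4 a list by adjusted p, and otherwise the most abundant, and the 3 genes of highest Pearson correlation are named per member. Gene lengths come from GENCODE M21 and promoters from RefSeq (GRCm38.p6).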

Additional observations from a re-analysis of the deposited data

Results flagged for a closer look

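The change of the pull-down to supernatant ratio between ages passed the test for 2 of the 52 pathway genes tested, beside 0.438% of all genes higher and 0.686% lower. The 2 genes, both receptors of NPY, are given because they passed. Npy1r changed by 3.19 ± 0.63 on the log2 scale, P60 less P12 (edgeR quasi-likelihood test, adjusted p = 0.0088). It stood at 3.96, 5.39 and 3.28 CPM in the P12 pull-downs and at 49.9, 43.2 and 33.8 CPM in the P60 pull-downs, and every supernatant of both ages lay between 9.01 and 11.1 CPM. It was thus lower in the pull-down in 3 of 3 pairs at P12 and higher in 3 of 3 at P60. Npy5r changed by 7.77 ± 1.66 (adjusted p = 0.0172), with 0, 3 and 0 reads in the P12 pull-downs and 211, 256 and 171 in the P60 pull-downs, so its fitted size rests on almost no reads at P12. The calls of Npy1r and Npy5r were lost without P60 replicate 1 (adjusted p = 0.116 and 0.137), 2 (0.097 and 0.116) or 3 (0.0764 and 0.174). The summed POMC neuron markers moved with them (34.7 to 111 CPM in the P12 and 3614 to 5707 CPM in the P60 pull-downs), and their part in the result was not tested.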

How the results depend on the processing

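Of the fold changes of the 6 genes under all alternatives, 307 kept direction and side of the threshold, 28 turned sign, 9 lost and 3 gained a call. With scaling by library size alone, 534 genes were higher and 1390 lower at P12 (main 933 and 289), 614 and 1790 at P60 (main 1027 and 655), 115 and 65 in the change between ages (main 67 and 105) and 445 and 264 between pull-downs (main 256 and 422). It gave Otp -0.173 at P12 and Npy 0.131 in the change between ages. DESeq2 called 567 genes lower at P12, 223 higher and 226 lower in the change between ages, and 515 and 686 between pull-downs. No filter gave 161 and 202 in the change, and 445 and 653 between pull-downs. One spread over all 12 libraries gave 657 lower at P12, 610 higher and 241 lower at P60, 1292 and 1469 between pull-downs, and 303 and 293 between supernatants (main 3182 and 3168), with Otp at -0.473, Calcr at -1.108 and Acvr1c at 1.144, none called. The length offset with the replicate block gave 170 lower at P12, 35 higher in the change, and P12 values of 0.609 for Agrp and 0.648 for Npy. The cause of these differences was not tested.

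The pairing by replicate number rests on the study's paired model. Deviations of same-numbered libraries correlated at 0.00256 to 0.0379 within ages. Without the replicate block 472 genes were lower at P12, Agrp stood at 0.755 at P12 and 0.274 at P60, Calcr at 0.116 at P12 and Acvr1c at 0.019 in the change between ages.

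Leaving out 1 replicate at a time, P12 values ran from -1.961 to 1.042 for Agrp, -0.072 to 0.323 for Otp, -1.938 to 0.427 for Calcr and -0.962 to 2.322 for Corin. At P60, 563 to 1154 genes were higher and 275 to 683 lower, with Agrp at -2.445 to 0.009 and Otp at -1.636 to -0.995. The change between ages had 22 to 151 genes higher and 42 to 135 lower, with Agrp at -2.125 to 0.749, Npy at -0.205 to 0.308, Calcr at -0.021 to 2.283 and Acvr1c at -0.627 to 0.464. Between pull-downs 86 to 353 genes were higher and 161 to 463 lower, with Agrp at -3.286 to 0.018, Npy at -0.529 to 0.11, Otp at -2.3 to -1.592 and Calcr at -1.305 to 0.723. Between supernatants Agrp ran from -0.583 to -0.059, Npy from -0.365 to -0.207 and Corin from -0.441 to 0.646. Agrp was called lower there without P12 replicate 3 (adjusted p = 0.0465), and Npy without P12 replicate 1 (0.03) or P60 replicate 1 (0.0273). The Agrp share differed by -14.3 to 13.39 points between P60 fractions and by -4.77 to 2.16 between supernatants. At P60 without replicate 3 the filter removed Corin, which has no value there. Low counts limit precision for Corin (0 to 37 reads a library) and for Agrp in the pull-downs with 1, 9 and 15 reads, and the pull-down with 1 Agrp read had the highest total of the 6 (19814679).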
